A study of Homo sapiens with 10 samples.

Results

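The RNA sensors *DDX58*, *IFIH1*, *DHX58* and *TLR3*, the adaptor *MAVS*, and the transcription factors *STAT2*, *IRF9*, *IRF7* and *IRF1* were followed by gene name through 2 RNA-seq experiments in HCT116 cells, a human colorectal cancer cell line. All 9 genes had values among the 17642 genes listed for the siRNA experiment, and 8 of them among the 13029 listed for the *ZMAT3* experiment, where *DHX58* was not analysed here. In the siRNA experiment 2 cultures had received a negative control siRNA (siCTRL) and 2 a pool of 4 siRNAs against p53 (sip53), and the harvest time of these RNA samples is not given in the sources used here. In the *ZMAT3* experiment 3 cultures of *ZMAT3*-WT cells were compared with 3 cultures of *ZMAT3*-KO cells. Both *ZMAT3* lines came from single cells isolated after CRISPR/Cas9 electroporation and puromycin selection. *ZMAT3* encodes an RNA-binding protein induced by p53, and the knockout carries a deletion near the p53 response element in the second intron of *ZMAT3* in a single clone. All 10 cultures are labelled as free of drug treatment, and the labels EV and unt of the *ZMAT3* libraries are not explained. The p-values describe the spread between cultures of 1 line or clone.

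Double-stranded RNA, a product of viral replication and of some endogenous transcripts, is detected in the cytoplasm by the helicases RIG-I (encoded by *DDX58*, named RIGI in current annotation) and MDA5 (*IFIH1*), with LGP2 (*DHX58*) as a modulator, and in endosomes by TLR3. RIG-I and MDA5 signal through MAVS on mitochondria to IRF3 and IRF7, which induce interferon genes. Secreted interferon then activates STAT2, which joins IRF9 in the complex ISGF3, and ISGF3 binds the interferon-stimulated response element (ISRE) of many genes, including several of the sensor genes themselves. *IRF1* is induced chiefly through a gamma-activated site (GAS) bound by STAT dimers. Innate sensing of this kind operates in intestinal epithelium as well as in immune cells.

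The sequences below show where the letters of these elements occur at the starts of the genes the results turn on. Promoters of 7 of the 9 genes were matched by symbol in RefSeq (GRCh38.p14), from 250 bases before to 50 bases after the gene start. *IRF7* and *DHX58* were not searched. Each of the 7 was searched on both strands for the ISRE core, 2 copies of GAAA with any 2 bases between them, and the GAS core TTCNNNGAA, which reads the same on both strands. The ISRE letters were found in 2 of the 7 promoters, *IFIH1* and *TLR3*, and in 3.57% of all 35116 promoters. The GAS letters were found in 3 of the 7, *TLR3*, *IRF9* and *IRF1*, and in 7.66% of all promoters. Windows of 30 bases are written 5′ to 3′ on the strand of the gene, with the matched letters in capitals; where the ISRE core reads as 2 copies of TTTC, the match lies on the other strand.
*IFIH1* ISRE, chr2:162318686-162318715, minus strand: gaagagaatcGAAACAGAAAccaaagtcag
*TLR3* ISRE, chr4:186069142-186069171, plus strand: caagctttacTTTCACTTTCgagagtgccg
*IRF9* GAS, chr14:24161192-24161221, plus strand: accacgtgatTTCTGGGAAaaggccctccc
*IRF1* GAS, chr5:132490878-132490907, minus strand: acagcctgatTTCCCCGAAatgacggcacg
Counting the first base of the RefSeq gene as 0, the matches begin at -21 in *IFIH1*, -4 in *TLR3*, -63 in *IRF9* and -124 in *IRF1*. *IFIH1* held another pair of ISRE matches that overlap each other, at -159 and -153, and *TLR3* held GAS matches at -178 and -50. A match is a run of letters and not a measured binding site.

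The siRNA experiment compared cells given siRNAs against p53 with cells given a control siRNA. The authors' methods list the control siRNA and the p53 pool from different suppliers. Effects of p53 depletion and of the siRNA reagents themselves cannot be told apart here. Values are FPKM, fragment counts scaled to transcript length and library size, so levels can be compared between genes. The p53 target *CDKN1A* went from 525.01 and 481.06 FPKM in the siCTRL libraries to 34.22 and 37.67 FPKM in the sip53 libraries. Of the 9 genes, 7 were lower with sip53 at an unadjusted p under 0.05, none was higher, and 2, *MAVS* and *IRF1*, did not pass. The share of all 14274 genes tested that was lower at this threshold was 9.28%, and 5.86% were higher. Each of the 7 was more than 2-fold lower, as were 3.01% of all genes at the same p. The median log2 fold change of the 9 genes was -1.86, against -0.04 for all genes tested. With adjustment over all genes tested, 4 of the 9 stayed under 0.05 (*DDX58*, *IFIH1*, *IRF7* and *IRF9*), where 0.238% of all genes were lower at that threshold. This adjusted call rested on all 4 libraries: with any 1 library left out 0 of the 9 genes held it in limma (adjusted p of the 4 genes 0.0605 to 0.193), while 6 to 7 stayed under an unadjusted 0.05. It was also held by 0 genes without the minimum level or without a variance trend, and by *DDX58* alone with libraries centred on their median gene. Fold changes were fitted with limma on log2(FPKM + 0.1), a scale that understates the change of genes with low values. In bulk RNA, fewer cells expressing a gene and less RNA per cell cannot be told apart.

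**Figure D1:**
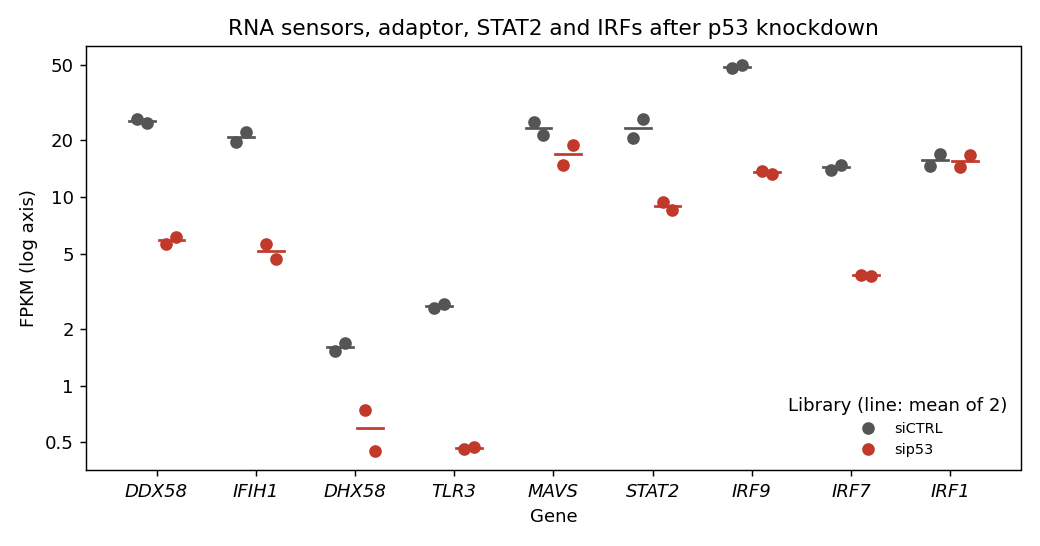
FPKM (log axis) of the 9 genes in each siCTRL (grey) and sip53 (red) library, with a line at the mean of 2 libraries. The sip53 points lie below the siCTRL points for every gene except *IRF1*, where they overlap, and the gap is smallest for *MAVS* among the others. Groups lay apart in the lower direction for 26.3% of all genes tested.

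All 4 sensor genes fell. *DDX58* (chr9:32455302-32526208, minus strand; this and the other gene positions are from GENCODE 44 on hg38), whose product RIG-I senses short and 5′-triphosphate RNA, was at 26.05 and 24.79 FPKM with siCTRL and at 5.66 and 6.11 FPKM with sip53. The 2 groups were far apart and the replicates close together. Its mean went from 25.4 ± 0.891 to 5.89 ± 0.318 FPKM (SD, n = 2), a log2 fold change of -2.09 (SE 0.174) with an adjusted p of 0.0387 by limma. This is 4.27-fold lower, and 82nd from the lowest of 14274 genes. *IFIH1* (chr2:162267074-162318684, minus strand), encoding the long double-stranded RNA sensor MDA5, was at 19.61 and 22.12 FPKM in siCTRL and 5.62 and 4.71 FPKM in sip53 libraries. Its log2 fold change was -1.996 (SE 0.194, adjusted p 0.0425, limma), or 25.1% of the control level.

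*TLR3* (chr4:186068911-186088073, plus strand), the endosomal sensor, had the largest log2 fold change of the 9 genes. It was at 2.58 and 2.72 FPKM with siCTRL and at 0.46 and 0.47 FPKM with sip53. Both sip53 values lay below 0.5 FPKM, the minimum mean used for testing, which *TLR3* passed through the siCTRL libraries. The log2 fold change was -2.28 (SE 0.301; limma p 0.000458, adjusted p 0.0817), and 0.455% of genes had a lower one. *DHX58* (chr17:42101404-42112714, minus strand), whose product LGP2 lacks the signalling domain of RIG-I and MDA5, was the least abundant of the 9 in the controls. Its siCTRL values were 1.53 and 1.69 FPKM and its sip53 values 0.74 and 0.45 FPKM. The groups did not overlap, but the sip53 values differed from each other more than those of the other sensors relative to their mean, 0.595 ± 0.205 FPKM (SD, n = 2). The log2 fold change was -1.33 (SE 0.373, limma p 0.0144, adjusted p 0.211). Without siCTRL replicate 2 the p for *DHX58* was 0.0626. The authors' mean normalized count was 31.1 for *DHX58* and 131 for *TLR3*, against 2017 for *DDX58*, so the 2 low genes rest on fewer reads. With a pseudocount of 1 FPKM in place of 0.1, the log2 fold changes of *TLR3* and *DHX58* were -1.32 and -0.72.

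The adaptor gene did not pass the threshold. *MAVS* (chr20:3846799-3876123, plus strand), which relays the signal of RIG-I and MDA5, was at 25.05 and 21.37 FPKM with siCTRL and at 14.8 and 18.89 FPKM with sip53. The groups did not overlap, as was so, in the lower direction, for 26.3% of all genes tested. The spread within each group was wide, 23.2 ± 2.60 and 16.8 ± 2.89 FPKM (SD, n = 2). The log2 fold change was -0.47 with a 95% interval of -0.996 to 0.06 (limma p 0.0737, adjusted p 0.377), an interval that lies above those of *DDX58*, *IFIH1* and *TLR3*. *MAVS* passed when siCTRL replicate 1 was paired with sip53 replicate 2 and siCTRL replicate 2 with sip53 replicate 1, a crossed pairing chosen after seeing the data.

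The ISGF3 genes fell. *STAT2* (chr12:56341597-56360203, minus strand), which carries the transactivation domain of the complex, was at 20.43 and 25.99 FPKM with siCTRL and at 9.37 and 8.5 FPKM after sip53 transfection. Its log2 fold change was -1.36 (SE 0.203, limma p 0.000851, adjusted p 0.0985). *IRF9* (chr14:24161234-24168043, plus strand), the DNA-binding subunit, was the most abundant of the 9 genes with siCTRL, at 48.33 and 49.95 FPKM, and reached 13.74 and 13.26 FPKM with sip53. Replicates differed by less than 2 FPKM in each group. The log2 fold change was -1.86 (SE 0.168, adjusted p 0.0425, limma), or 3.62-fold lower.

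The other interferon regulatory factors differed from each other. *IRF7* (chr11:612553-615983, minus strand), the factor that amplifies type I interferon induction, was at 13.85 and 14.85 FPKM with siCTRL and at 3.85 and 3.82 FPKM with sip53. The groups lay well apart, with a log2 fold change of -1.88 (SE 0.178, adjusted p 0.0425, limma), or 27.2% of the control level. *IRF1* (chr5:132440440-132508719, minus strand, a span that in GENCODE reaches beyond the RefSeq start) was at 14.61 and 16.82 FPKM with siCTRL and at 14.38 and 16.68 FPKM with sip53. The 2 groups overlapped almost completely. The log2 fold change was -0.02 with a 95% interval of -0.50 to 0.46 (adjusted p 0.978, limma), so a fall of the size seen for *IRF7* or *IRF9* lies outside this interval. *IRF1* was thus at a level close to that of *IRF7* in the controls, where their ranges overlapped, and above it with sip53.

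The order of the levels changed with these falls. With siCTRL the mean FPKM ran from *IRF9* through *DDX58*, *MAVS* and *STAT2* (equal at 23.21), *IFIH1*, *IRF1*, *IRF7* and *TLR3* to *DHX58*. *DDX58*, *MAVS* and *STAT2* overlapped each other, as did *MAVS*, *STAT2* and *IFIH1*, while *TLR3* and *DHX58* lay clearly below the rest and *IRF9* clearly above. With sip53 the order was *MAVS*, *IRF1*, *IRF9*, *STAT2*, *DDX58*, *IFIH1*, *IRF7*, *DHX58* and *TLR3*, with overlap between *MAVS* and *IRF1* and between *DHX58* and *TLR3*. In percentiles of all genes tested, *IRF9* with siCTRL stood above 84.2% of genes and *DHX58* above 14.9%.

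The genes around these 9 in the pathway were read from lists, given here as counts at the same threshold. The 9 genes and the lists were chosen with earlier results of these data known. Their counts therefore describe them and are no independent test. Of the 11 signalling genes below the sensors, 1 fell and 10 did not pass, with a median log2 fold change of -0.03. The one that fell was *TRIM25*, the ubiquitin ligase that activates RIG-I, with a log2 fold change of -0.96 (limma p 0.00244, adjusted p 0.124). *IRF3*, the factor phosphorylated downstream of MAVS, was at 64.73 and 39.21 FPKM with siCTRL and at 42.83 and 77.6 FPKM with sip53, so its groups overlapped with a wide spread within each. Of 9 interferon receptor and kinase genes, 1 rose (*IFNAR2*, a type I interferon receptor chain, log2 fold change 0.46, limma p 0.0485, adjusted p 0.325), 8 did not pass, and the median was -0.00.

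Of 8 interferon genes only *IFNL1*, a type III interferon, passed the minimum level, and it did so through the siCTRL libraries. It was at 1.37 and 0.67 FPKM with siCTRL and at 0.11 and 0.24 FPKM with sip53 (log2 fold change -1.99, limma p 0.0165, adjusted p 0.22). At sip53 values this low the fitted fold change depends on the pseudocount. Of 7 other STAT and IRF genes tested, 3 fell and 4 did not pass, and among those that fell *STAT6* had a log2 fold change of -0.73 and *STAT3* one of -0.48, with adjusted p of 0.236 and 0.302 by limma. Of 7 other nucleic acid sensor genes tested, 5 fell, with a median of -1.06. Among them were the 2′-5′ oligoadenylate synthetases *OAS1* (-4.31) and *OAS3* (-3.35), the kinase PKR encoded by *EIF2AK2* (-1.35), and the Toll-like receptor adaptor *MYD88* (-1.06), all on the log2 fold change scale.

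Most of the interferon-induced effector genes fell. Of 26 tested, 24 fell, none rose and 2 did not pass, with a median log2 fold change of -2.23, and 13 had an adjusted p under 0.05 with all 4 libraries. *IFI27*, which encodes a mitochondrial protein, was at 162.01 and 288.03 FPKM with siCTRL and at 9.05 and 3.89 FPKM with sip53. *IFI6* was at 366.13 and 402.24 FPKM and then at 27.43 and 29.74 FPKM, a log2 fold change of -3.74. *IFI44L* and the antiviral ubiquitin ligase *TRIM22* were at 2 to 3 FPKM with siCTRL and at 0 and 0.03 FPKM with sip53, where the fitted fold change depends on the pseudocount. They passed the minimum level through the siCTRL libraries, as did other low effector genes in this count. The ISRE letters were in 15 of the 24 effector promoters matched, 62.5%, and the GAS letters in 4. Of 10 negative regulators, 1 rose and 2 fell, with a median of -0.18. *USP18*, which blocks the type I receptor and is itself interferon-induced, fell with a log2 fold change of -1.91. *NLRX1*, a mitochondrial inhibitor of MAVS signalling, fell with one of -0.85, and *SOCS3*, an inhibitor of cytokine receptor signalling, rose with one of 0.70. Adjusted p-values (limma) for these 3 were 0.0564, 0.19 and 0.176.

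**Figure D2:**
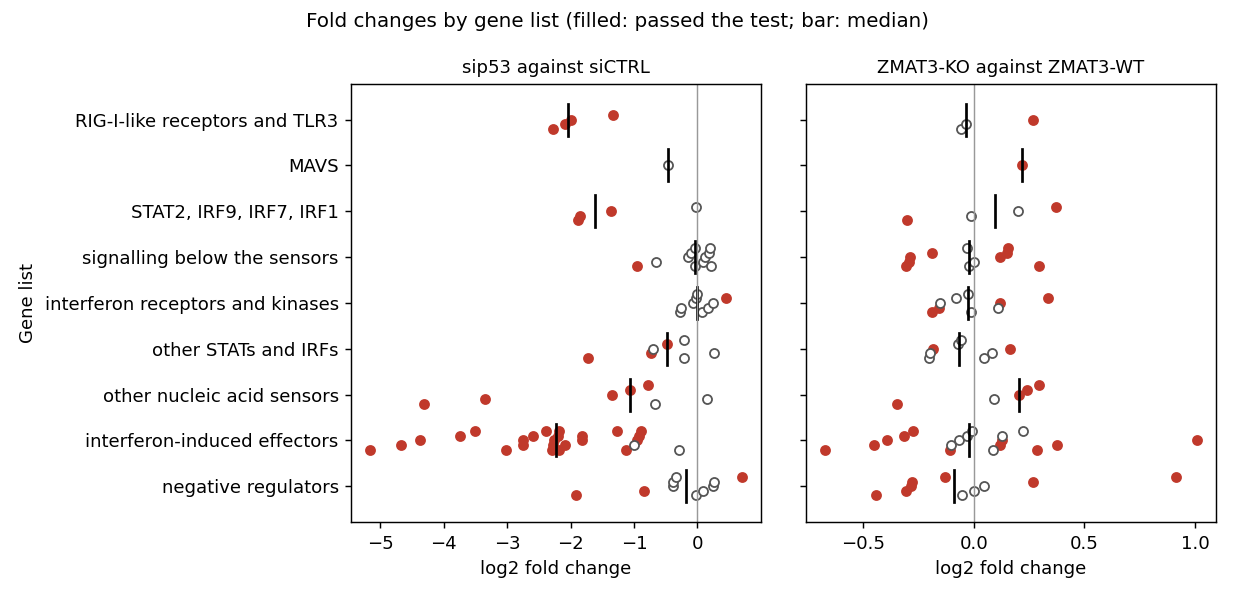
Log2 fold changes of each gene by list in the siRNA (left) and *ZMAT3* (right) experiments; filled points passed the test of that experiment, open points did not, and bars are medians. In the siRNA experiment the sensor, STAT and IRF genes lie to the left with the effectors (median -2.23), and signalling genes and receptors lie around 0, whereas in the *ZMAT3* experiment every list lies around 0 on a narrower axis.

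Markers of other cell types were read beside these falls. Of 7 colon epithelial markers 6 passed the minimum level, the lowest value being 36.89 FPKM (*CDH1*), and *VIL1*, which encodes villin, was at 0.22 and 0.18 FPKM with siCTRL and at 0.19 and 0.13 FPKM after sip53. Of the 6, *EPCAM* rose with a log2 fold change of 0.60 (limma p 0.0234, adjusted p 0.247) and 5 did not pass. Of 6 leukocyte markers only *CD68*, a lysosomal protein gene, passed the minimum level, at 7.97 and 2.06 FPKM with siCTRL and at 11.6 and 26.93 FPKM with sip53. It rose while the sensor genes fell. *CD14* was at most 0.15 FPKM and *ITGAM* at most 0.28 FPKM in any of the 4 libraries, and *PTPRC* and *CD3E* were not analysed here. The fibroblast marker *COL1A1* did not pass, with a log2 fold change of 0.46, and no endothelial marker passed the minimum level.

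The *ZMAT3* experiment asked what changes when *ZMAT3* is depleted while p53 is present. Values are log2 CPM, read counts scaled to the library total, on the log2 scale and without a length correction, so levels are not compared between genes. *ZMAT3* itself was lower in *ZMAT3*-KO by 2.89 on the log2 scale (log2 fold change -2.89). The p53 target *CDKN1A* was lower as well, with a log2 fold change of -0.53 (adjusted p 2.02e-08, limma). At an adjusted p under 0.05 together with a 1.5-fold change, 0 of the 8 genes were called by limma, a threshold that 8.96% of all 13029 genes passed. Without the fold threshold 4 passed, 3 higher and 1 lower, where 58.8% of all genes passed in either direction (28.7% higher, 30.1% lower), so the share of these genes that passed was not above that of all genes. The median log2 fold change of the 8 genes was 0.09, against -0.01 for all genes.

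Among the sensors only *IFIH1* passed. Its log2 CPM values were 3.68, 3.56 and 3.74 in *ZMAT3*-WT and 3.94, 3.98 and 3.87 in *ZMAT3*-KO. Every knockout library was above every wild-type library, and groups were apart in either direction for 64.2% of all genes. The log2 fold change of *IFIH1* was 0.27 (SE 0.059, adjusted p 0.00171, limma) or 1.21-fold. *DDX58* was at 3.50, 3.49 and 3.40 in *ZMAT3*-WT and at 3.49, 3.44 and 3.36 in *ZMAT3*-KO, so the groups overlapped. Its log2 fold change was -0.03 with a 95% interval of -0.16 to 0.09 (adjusted p 0.654, limma). *TLR3* was at 1.76, 1.66 and 1.82 against 1.72, 1.70 and 1.65. Its groups overlapped too, with a log2 fold change of -0.06 and an interval of -0.26 to 0.15. *MAVS* was at 7.21, 7.21 and 7.19 in *ZMAT3*-WT and at 7.38, 7.47 and 7.43 in *ZMAT3*-KO, a rise of 0.22 on the log2 scale (SE 0.030, adjusted p 5.07e-05, limma) or 1.16-fold.

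**Figure D3:**
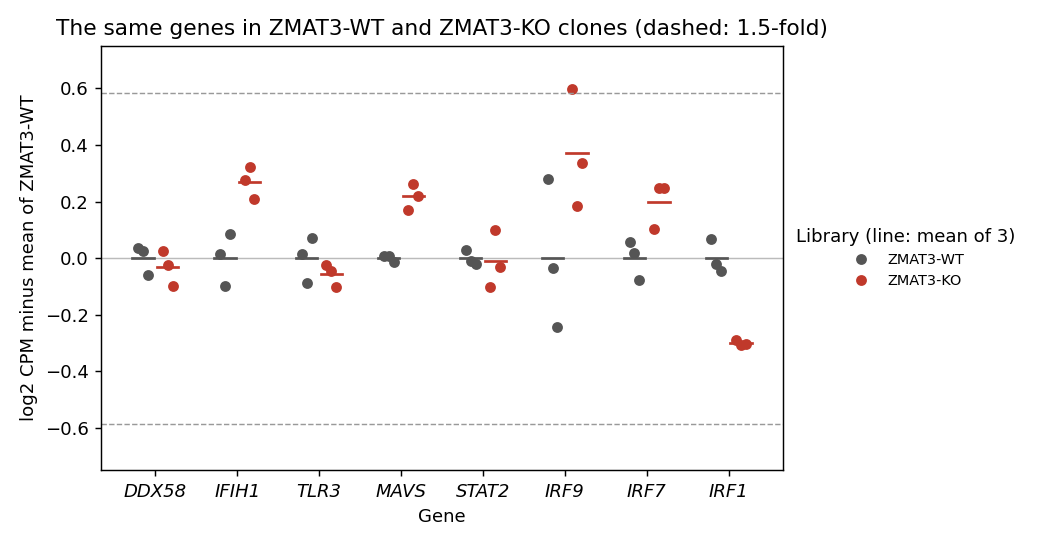
Log2 CPM of 8 genes in each *ZMAT3*-WT (grey) and *ZMAT3*-KO (red) library, minus the mean of the *ZMAT3*-WT libraries of that gene; lines are means of 3 libraries and dashed lines mark a 1.5-fold change. No mean reaches a dashed line, and the groups are apart for *IFIH1*, *MAVS*, *IRF7* and *IRF1*. Groups were apart in either direction for 64.2% of all genes.

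Of the ISGF3 genes, *STAT2* was at 3.73, 3.69 and 3.68 log2 CPM in *ZMAT3*-WT and at 3.60, 3.80 and 3.67 in *ZMAT3*-KO. These overlapped, with a log2 fold change of -0.01 and a 95% interval of -0.14 to 0.12. *IRF9* was at 1.42, 1.10 and 0.90 against 1.74, 1.32 and 1.47, and the groups overlapped through *ZMAT3*-WT replicate 1. Its log2 fold change of 0.37 (SE 0.150) had an adjusted p of 0.0487 by limma, and the call was lost (adjusted p 0.079 to 0.195) without *ZMAT3*-WT replicate 2 or 3 or *ZMAT3*-KO replicate 1 or 3, with log2 fold changes between 0.25 and 0.39.

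*IRF1* was the only one of the 8 genes to fall in *ZMAT3*-KO cells. It was at 4.25, 4.16 and 4.13 log2 CPM in *ZMAT3*-WT and at 3.89, 3.87 and 3.88 in *ZMAT3*-KO, with no overlap and the 3 knockout libraries nearly equal. The log2 fold change was -0.30 (SE 0.048, adjusted p 0.000177, limma), or 1.23-fold lower. *IRF7* was at 2.19, 2.15 and 2.06 in *ZMAT3*-WT and at 2.23, 2.38 and 2.38 in *ZMAT3*-KO. The groups did not overlap, as was so for 64.2% of all genes, and the log2 fold change of 0.20 (SE 0.083, adjusted p 0.0536, limma) did not pass. It passed without *ZMAT3*-KO replicate 1 (adjusted p 0.0365).

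The neighbouring lists moved little and in both directions in *ZMAT3*-KO cells. Of 11 signalling genes, 4 rose and 4 fell with a median log2 fold change of -0.02. *IRF3* was lower (-0.31), as were the RIG-I ubiquitin ligase *RNF135* (-0.29) and the kinase *IKBKE* (-0.29), and the kinase adaptor *TANK* was higher (0.30). Of 9 receptors and kinases, 2 rose and 2 fell, led by the kinase *TYK2* (0.33) and with a median of -0.02. Of 8 other STAT and IRF genes, 1 rose and 1 fell (*IRF5*, -0.18), with a median of -0.06. No interferon gene was tested. Of 5 other nucleic acid sensors, 3 rose and 1 fell with a median of 0.21, and *TMEM173*, which encodes the DNA-sensing adaptor STING, was lower (-0.35).

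Of 18 effectors tested in *ZMAT3*-KO, 5 rose and 6 fell with a median of -0.02. Of these, 2 passed at 1.5-fold: *IFIT2*, an RNA-binding antiviral gene, was higher (1.01) and *SAMD9* lower (-0.67). *IFIT2* was near the floor in *ZMAT3*-WT, at -0.43, 0.38 and 0.10 log2 CPM, where 1.93% of genes had a lower mean. Of 10 negative regulators, 2 rose and 5 fell with a median of -0.09, and *SOCS1*, an inhibitor of JAK kinases, was higher by 0.92. Among colon epithelial markers 3 of the 6 tested, the keratins *KRT8* (-0.94), *KRT18* (-0.82) and *KRT19* (-1.75), were lower in *ZMAT3*-KO. *CD68* was higher (0.98), and so was *COL1A1* (0.16). The part of these marker differences in the values of the 8 genes was not tested.

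Set side by side, the experiments gave each gene its own pair of fold changes. *IFIH1* had a log2 fold change of -1.996 with sip53 and 0.27 in *ZMAT3*-KO, and *IRF9* -1.86 and 0.37. *DDX58* and *TLR3*, which fell with sip53, had values near 0 in *ZMAT3*-KO. *IRF1* showed the reverse, with -0.02 and -0.30. *ZMAT3* itself fell in both experiments, from 12 and 13.62 to 3.16 and 1.97 FPKM with sip53. The tables were normalized separately, and the difference between the experiments was not tested.

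**Figure D4:**
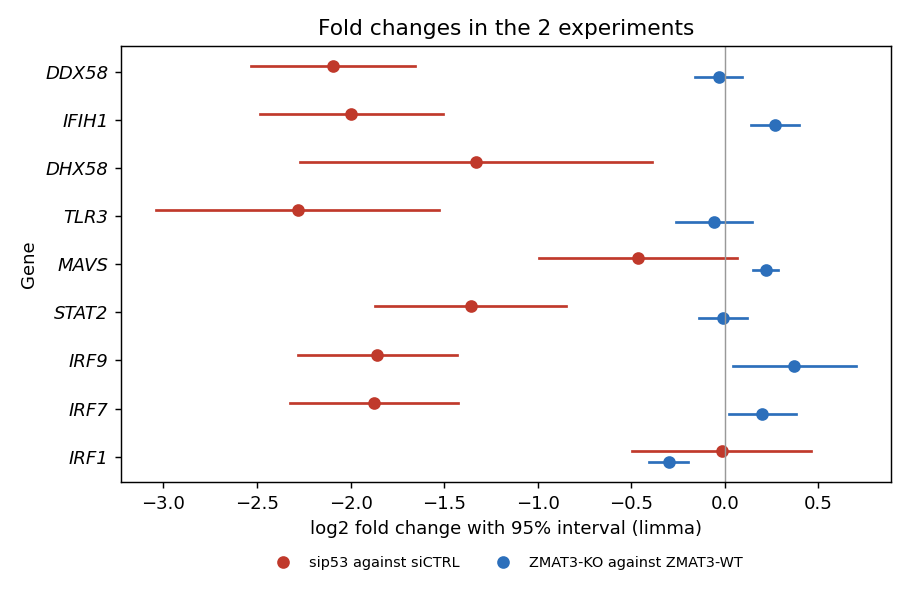
Log2 fold change with its 95% interval (limma) for each gene with sip53 against siCTRL (red) and in *ZMAT3*-KO against *ZMAT3*-WT (blue). The red intervals lie below 0 except for *MAVS* (-0.996 to 0.06) and *IRF1* (-0.50 to 0.46), and the blue ones lie within 1 log2 unit of 0.

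Genes with the most similar pattern were sought by Euclidean distance over the 10 libraries, each centred on the control mean of its own experiment, among 11385 genes tested in both. Nearest to *TLR3*, the gene of the 9 with the largest fitted fall with sip53, were *DDX58* (distance 0.345), *IFIT3* (0.502) and *LAMA3* (0.560). *TLR3* passed the minimum level through the siCTRL libraries. Its fitted fall depends on the pseudocount, and so do its choice and these distances. The 9 genes were chosen with earlier results of these data known, so the place of *DDX58* is no independent test. Nearest to *IRF9*, the gene with the largest log2 fold change in *ZMAT3*-KO, were *EMC10* (0.515), *TMEM150A* (0.526) and *SFXN2* (0.583), which had log2 fold changes of -1.76, -2.01 and -1.78 with sip53. The 10 points of each gene share libraries with those of every other gene.

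Some values may be split between overlapping annotations. In GENCODE 44 *DDX58* and *IRF9* each overlap another coding gene on the same strand (ENSG00000288684 and ENSG00000259529), *STAT2* overlaps a small RNA gene, *IRF9* also overlaps a long non-coding RNA on the other strand, and *IRF1* overlaps *IRF1-AS1* and further genes on the other strand. How the siRNA libraries were counted over such overlaps is not given in the sources used here.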

How the data were processed

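Poly(A) RNA of 10 HCT116 libraries was grouped by label. For the *ZMAT3* libraries the authors used Cutadapt, STAR (hg38) and RSEM and deposited log2 CPM values with 1 shared distribution (lowest -6.62, highest 13.51); for the siRNA libraries the deposited values were read as FPKM (sums 708634 to 829230), and their processing is not given in the sources used here. The submitters' processing notes name CASAVA 1.8.2, TopHat2 2.0.8 and FastQC 0.11.2 with no role. The deposited tables also hold the authors' own fold changes (ratio and log2), a mean signal (normalized count) per gene, a standard error, a test score and p-values, of which the mean signal alone was used. Depth is unknown, since no file holds counts.

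Each table was fitted whole with limma 3.58.1 in R 4.3.3 (variance trend, two-sided, Benjamini-Hochberg), the siRNA table as log2(FPKM + 0.1) and only where the 4 libraries averaged 0.5 FPKM or more; the script was tested on simulated data with 200 changed genes. Replicates correlated at 0.995 to 0.996 (*ZMAT3*), 0.964 (siCTRL) and 0.958 (sip53) across genes, which are not independent. Between groups the *ZMAT3* libraries correlated at 0.968 to 0.971. In the siRNA experiment siCTRL 1 with sip53 2 gave 0.962 and siCTRL 2 with sip53 1 gave 0.963, about as high as replicates. The same-numbered siRNA libraries gave 0.941 and 0.937. All 9 genes are named, with at most the 4 largest called changes of each list, *ZMAT3*, *CDKN1A*, markers, and the 3 nearest genes by distance. *IRF3*, read beside its pathway, was named after its values were seen. The genes and lists were chosen with earlier results of these data known. Some genes of these lists are not reported here. Sequences came from RefSeq; positions from GENCODE 44. Alternatives were other pseudocounts, filters, centring, variance models, blocks, thresholds and leaving out each library. Tables and figures used Python 3.11.15, pandas 2.3.3, numpy 2.4.6 and matplotlib 3.10.9.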

Additional observations from a re-analysis of the deposited data

How the results depend on the processing

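The number of the 9 genes lower with sip53 was 7 and became 4 with an adjusted p; leaving out 1 library gave 6 to 7 (*DHX58* lost), and by adjusted p 0. With a minimum of 5 FPKM it was 5, as *TLR3* and *DHX58* were not tested. In *ZMAT3*-KO the number called was 4, 0 at 2-fold, and 3 to 4 with 1 library left out; at 1.5-fold it was 0 in every alternative, with 5 genes at an unadjusted p under 0.05 and any fold (limma). *IRF9* in *ZMAT3*-KO was not called without a variance trend (adjusted p 0.09), and *IRF7* was called with a pseudocount of 1 (0.0496) or without a trend (0.0258). Over all genes, 1168 were called in *ZMAT3*-KO, 396 at 2-fold and 1154 to 1201 with 1 library left out. With sip53, 2161 were called, 39 by adjusted p, and 1185 to 1891 with 1 library left out (1185 without siCTRL replicate 1, 1198 without siCTRL replicate 2). Centring each library on its median gene turned the split of 836 higher and 1325 lower into 1120 and 1048. The sign of small log2 fold changes turned: *IRF1* with sip53 was 0.058 when centred and ran from -0.12 to 0.089 with 1 library left out (above 0 without siCTRL replicate 2 or sip53 replicate 1). In *ZMAT3*-KO, *DDX58* ran from -0.063 to 0.0010 (above 0 without *ZMAT3*-KO replicate 3) and *STAT2* from -0.067 to 0.034 (above 0 without replicate 1 of either group). The cause of these changes was not tested. Unknown depth limits what can be said of *TLR3* and *DHX58*.

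Replicate numbers did not pair the libraries: same-numbered deviations correlated at -0.04, -0.02 and -0.09 (*ZMAT3*) and -0.62 (siRNA). The replicate block gave 1084 genes with sip53 (434 higher, 650 lower) and 1178 in *ZMAT3*-KO, and 7 and 4 of the genes described here. A crossed pairing of the siRNA libraries, chosen after seeing the data, gave a block count of 5538 genes and 8 of the 9, the gene gained being *MAVS*.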

Other observations

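The control levels of these genes differed between the experiments. For 11269 genes with a level in both tables, the per-length level of siCTRL minus that of *ZMAT3*-WT was taken on the log2 scale and centred on its median, with quartiles at -0.57 and 0.65. This difference was 4.56 for *IRF9*, 2.79 for *DDX58*, 2.34 for *STAT2*, 2.03 for *IRF7*, 1.94 for *IFIH1*, 1.67 for *TLR3*, 1.00 for *IRF1* and 0.26 for *MAVS*, a median of 1.99 over the 8 genes. For 18 interferon-induced effectors the median was 1.80, and for 10 signalling genes below the sensors it was -0.23. With sip53 in place of siCTRL the same differences were 2.76 for *IRF9*, 0.76 for *DDX58*, 1.04 for *STAT2*, 0.22 for *IRF7*, 0.01 for *IFIH1*, -0.55 for *TLR3*, 1.05 for *IRF1* and -0.15 for *MAVS*, with medians of 0.49 over the 8 genes and 0.22 over the effectors. On this scale the sip53 libraries were nearer to the *ZMAT3*-WT libraries than the siCTRL libraries were for *IRF9*, *DDX58*, *STAT2*, *IRF7*, *IFIH1*, *TLR3* and *MAVS*. Both differences subtract the same *ZMAT3*-WT level. The step from one to the other therefore repeats the sip53 fold change given above, up to the centring, and is no separate observation. The tables were normalized separately, from libraries whose transfection and processing differed, and these differences carry no test and cannot be told apart from those of the experiments.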
